A study of Homo sapiens with 18 samples.

Results

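The 10 genes described here are the 3 sestrin genes *SESN1*, *SESN2* and *SESN3*, the AMPK subunit genes *PRKAA1*, *PRKAA2*, *PRKAB1*, *PRKAB2*, *PRKAG1* and *PRKAG2*, and the kinase gene *STK11*. They were taken by gene name from 26702 gene IDs, and all 10 were listed with an adjusted p in every one of the 6 deposited comparison tables. RNA was sequenced from 18 samples, in 6 groups of 3, of the osteosarcoma cell line U2OS, which is human and keeps functional p53. Cells were transfected with a control siRNA (siControl), with an siRNA against *ANKRA2* (siANKRA2) or with an siRNA against *RFXANK* (siRFXANK), and each of these was kept for 24 h in 10 µM Nutlin-3a or in its solvent DMSO. Nutlin-3a blocks the binding of MDM2 to p53 and so activates p53. All groups thus share transfection with an siRNA, and no untransfected cells were analysed here. The label wild-type and the labels bone and epithelial cells stand on the siRFXANK samples alone. These samples were registered separately and have no siControl samples of their own, so that siRFXANK and a batch cannot be told apart in siRFXANK over siControl. Nothing in the labels says that the samples of a group came from separate cultures, and p-values therefore measure a spread between samples. The authors' fit behind them may cover samples beyond these 18.

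Sestrins are stress-inducible proteins. They bind the GATOR2 complex and so keep mTORC1, the kinase complex that drives growth when amino acids are present, inactive when leucine is scarce. SESN1 and SESN2 are established products of p53 target genes, SESN3 is best known as a product of a FOXO target gene, and sestrins have also been linked to activation of AMPK. AMPK senses a falling energy charge. It is a trimer of a catalytic α subunit (PRKAA1 or PRKAA2), a scaffolding β subunit (PRKAB1 or PRKAB2) and a nucleotide-binding γ subunit (PRKAG1, PRKAG2 or PRKAG3). STK11, also called LKB1, is the main upstream kinase of AMPK. *PRKAB1* is also a known p53 target gene. RFXANK is a subunit of the RFX complex that binds X-box motifs, and ANKRA2 is a related ankyrin repeat protein. *PRKAG3* is not listed in the tables and was not analysed here.

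Promoter stretches are shown for the genes with the largest Nutlin-3a responses below. They come from RefSeq windows on GRCh38.p14 that hold the 250 bases before an annotated transcript start, and all 10 genes matched at least 1 window. Each window was searched on both strands for the p53 decamer by its consensus and for the X-box core GTTGCC. The motifs do not overlap in these windows. Capitals mark the matches. Bases within exons of the gene itself are left out.
SESN1, chr6:109008989-109009238, minus strand: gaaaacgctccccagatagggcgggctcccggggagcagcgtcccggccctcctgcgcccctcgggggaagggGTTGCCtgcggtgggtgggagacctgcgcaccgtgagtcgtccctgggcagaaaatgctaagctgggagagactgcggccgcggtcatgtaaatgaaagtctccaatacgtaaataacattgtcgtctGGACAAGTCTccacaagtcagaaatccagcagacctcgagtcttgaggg
SESN2, chr1:28259268-28259517, plus strand: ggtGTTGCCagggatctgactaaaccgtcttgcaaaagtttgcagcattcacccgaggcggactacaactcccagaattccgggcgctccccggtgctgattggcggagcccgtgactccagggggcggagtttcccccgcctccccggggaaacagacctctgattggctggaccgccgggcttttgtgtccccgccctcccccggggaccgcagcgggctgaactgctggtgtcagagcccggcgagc
SESN3, chr11:95232542-95232725, minus strand: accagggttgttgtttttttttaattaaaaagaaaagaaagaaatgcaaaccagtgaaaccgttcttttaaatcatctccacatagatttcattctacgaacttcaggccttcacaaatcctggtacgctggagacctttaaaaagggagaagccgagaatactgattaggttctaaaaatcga
PRKAB1, chr12:119668057-119668086, plus strand: ttgcgagagctcGGCAACcctgccgactca
PRKAB2, chr1:147172551-147172720, minus strand: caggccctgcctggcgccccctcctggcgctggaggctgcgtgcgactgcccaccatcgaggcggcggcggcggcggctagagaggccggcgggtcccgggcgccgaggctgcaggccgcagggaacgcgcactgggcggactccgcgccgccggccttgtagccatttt
The *SESN1* stretch lies before the start of its short transcript, the third of 3 windows of the gene and within an intron of the longer transcripts. Counted from that start, it holds a p53 decamer at -49 to -40 and an X-box core at -177 to -172. The other 2 *SESN1* windows hold neither motif. *SESN2* has an X-box core at -247 to -242. The *PRKAB1* window lies wholly in an annotated first exon, so only 30 bases around its X-box core are given, which reads on the reverse strand at -64 to -59 from the RefSeq start. The windows of *SESN3*, *PRKAB2*, *PRKAA1*, *PRKAA2*, *PRKAG1*, *PRKAG2* and *STK11* hold neither motif. Of 35116 such windows, 5.57% hold the p53 decamer and 10.2% the X-box core. A match is a description of the sequence only.

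The labels were first checked against genes with a known direction. In DMSO, *ANKRA2* was 3.51-fold lower after siANKRA2 (log2 fold change -1.81, SE 0.18) and *RFXANK* was 7.78-fold lower after siRFXANK (-2.96, SE 0.10). The direction of the knockdown tables was itself read from these 2 genes. Nutlin-3a raised the p53 target *CDKN1A* 9.62-fold in siControl and *MDM2* 10.4-fold. *ANKRA2* also rose 3.88-fold in Nutlin-3a. In DMSO, *RFXANK* was lower by 0.37 on the log2 scale after siANKRA2 (DESeq2's Wald test, adjusted p = 5.95e-07). *ANKRA2* was higher by 0.73 in siRFXANK than in siControl, also in DMSO (same test, adjusted p = 1.59e-10). For this *ANKRA2* value, siRFXANK and a batch cannot be told apart. *CDKN1A* was already 4.12-fold higher after siANKRA2 without Nutlin-3a, beside a value of -0.06 after siRFXANK (adjusted p = 0.27). *MDM2* in the same siANKRA2 comparison was at -0.11 and did not pass (adjusted p = 0.065). Of the osteoblast markers, *COL1A1* had an authors' mean of 64042 normalized counts, *SPARC* of 29456, *RUNX2* of 454, *SPP1* of 204 and *ALPL* of 148, while *COL1A2* was at 33.2, *BGLAP* at 2.08, and *SP7* and *IBSP* were not listed. The mesenchymal marker *VIM* was at 55026. The blood marker *PTPRC* was at 3.81, with *CD3E* not listed, and the endothelial marker *PECAM1* at 1.33. Of the epithelial markers, *KRT8* and *KRT18* were at 21456 and 12960, *CLDN4* at 599, *EPCAM* at 161, *CDH1* at 32.9 and *KRT5* at 3.56. No value per library was analysed here, so that depth and library quality are unknown, and in bulk RNA fewer expressing cells and less RNA per cell cannot be told apart.

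Nutlin-3a raised all 3 sestrins and both β subunits of AMPK in siControl cells, and the catalytic subunits fell slightly. Of the 10 genes, 7 rose, 2 fell and *PRKAG2* did not pass at an adjusted p under 0.05 (DESeq2's Wald test, Benjamini-Hochberg adjustment as deposited). The number of genes with an adjusted p differed between the comparisons, and shares of all genes tested refer to those genes. Over all 25909 genes tested, 21.9% were called higher and 21.2% lower. Among the 13103 genes with a mean normalized count of 100 or more, which all 10 genes reach, these shares were 32.4% and 35.1%. The median log2 fold change was 0.60 over the 10 genes and 0.02 over all genes tested. A level in the following is the authors' mean normalized count of a gene, shared out over the 6 groups by the deposited fold changes, so that its absolute height is approximate. A group's level had a recovered SE of at most 0.06 on the log2 scale, except for *SESN3* at up to 0.11.

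**Figure D1:**
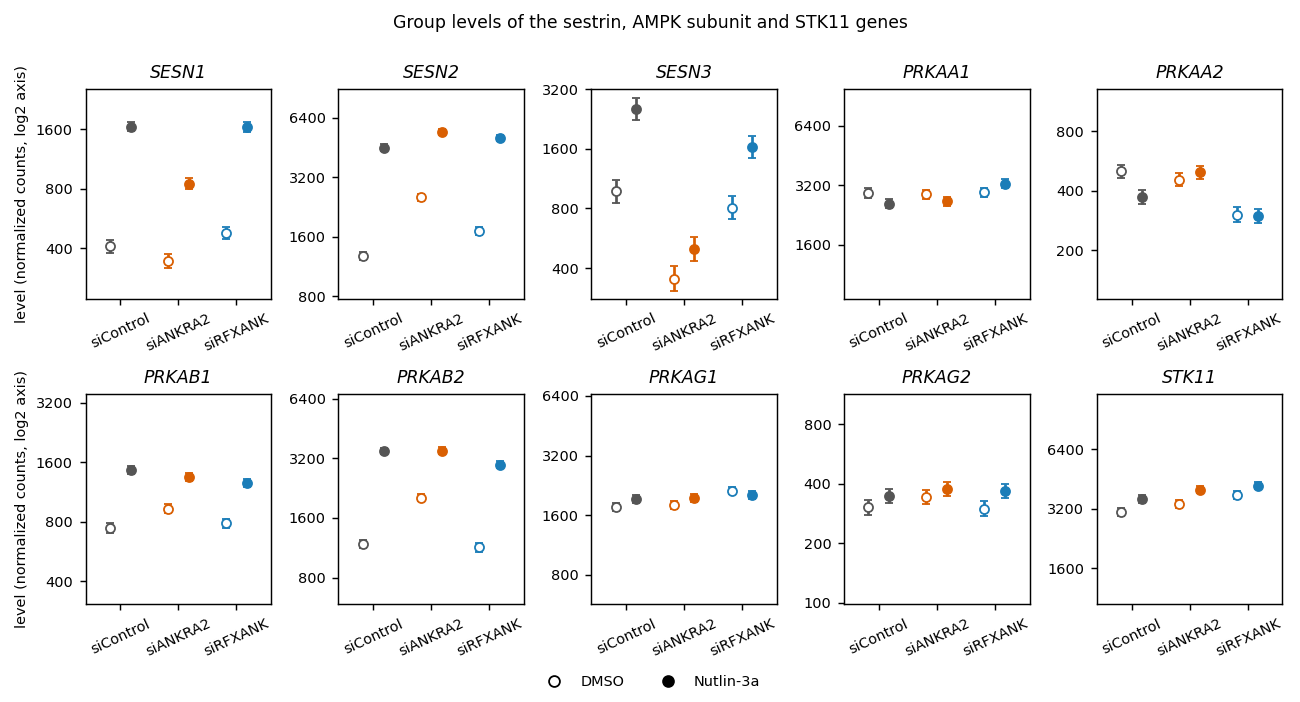
Level of each gene (normalized counts, log2 axis) in the 6 groups, with open circles for DMSO, filled circles for Nutlin-3a, colours for the siRNA and bars for 95% intervals from the recovered SE. *SESN1*, *SESN2*, *SESN3*, *PRKAB1* and *PRKAB2* are higher in Nutlin-3a than in DMSO for each siRNA, and *SESN3* is lowest in both siANKRA2 groups.

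*SESN1*, on the minus strand of chromosome 6 (chr6:108986437-109094819, GENCODE 29 on GRCh38), had the largest response. Its level was 410 in siControl DMSO and 1652 in siControl Nutlin-3a, 346 and 850 in siANKRA2, and 479 and 1648 in siRFXANK. The Nutlin-3a levels of siControl and siRFXANK did not differ beyond their error (log2 difference 0.00, 95% interval -0.11 to 0.12), and every other neighbouring pair in the order of its 6 levels did. The rise in siControl was 4.03-fold (log2 fold change 2.01, SE 0.07, adjusted p = 9.03e-180).

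*SESN2*, on the plus strand of chromosome 1 (chr1:28259527-28282491), rose 3.51-fold in siControl (log2 fold change 1.81, SE 0.04, adjusted p listed as 0). Its level was 1286 in siControl DMSO and 4517 in siControl Nutlin-3a, 2542 and 5436 in siANKRA2, and 1713 and 5060 in siRFXANK. All 6 of its levels differed from their neighbours beyond the error. Without Nutlin-3a, siControl cells had the lowest *SESN2* level of all groups.

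*SESN3*, on the minus strand of chromosome 11 (chr11:95165513-95232541), rose 2.6-fold (log2 fold change 1.38, SE 0.14, adjusted p = 4.76e-23). Its level was 978 in siControl DMSO and 2546 in siControl Nutlin-3a, 354 and 498 in siANKRA2, and 805 and 1634 in siRFXANK. It spanned 7.19-fold from the lowest to the highest group, the widest range of the 10 genes. *SESN3* also had the largest dispersion of the 10 genes, 0.0124, as recovered from the SEs. In the fitted model this is a coefficient of variation of 11.1% beyond counting noise, against 2.97% in *SESN2* and 4.37% in *SESN1*. It is a value of the authors' fit and was not measured between libraries.

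Both β subunits rose, by unequal amounts. *PRKAB2* (chr1:147155106-147172550) went from 1180 to 3486 in siControl, a rise of 2.95-fold (log2 fold change 1.56, SE 0.05, adjusted p = 8.94e-259). *PRKAB1* (chr12:119667753-119681630) went from 746 to 1462, a rise of 0.97 on the log2 scale (SE 0.05, adjusted p = 1.55e-76). *PRKAB2* thus responded more than *PRKAB1* by 0.59 on the log2 scale (95% interval 0.46 to 0.73). Of the stretches of 31 bases in the longest *PRKAB1* transcript, 4.11% also occur in transcripts of other genes, *PRKAB2* not among those found.

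The catalytic α subunits went the other way in siControl. *PRKAA2* (chr1:56645322-56715335) fell from 501 to 372 (log2 fold change -0.43, SE 0.08, adjusted p = 3.99e-07), and *PRKAA1* (chr5:40759379-40798374) fell from 2919 to 2576 (-0.18, SE 0.06, adjusted p = 0.0032). The γ subunits and STK11 changed little. *PRKAG1* (chr12:49002274-49018825) rose by 0.14 on the log2 scale (SE 0.05, adjusted p = 0.0063) and *STK11* (chr19:1177558-1228435) by 0.22 (SE 0.05, adjusted p = 1.01e-05). *PRKAG2* (chr7:151556111-151877125) had a value of 0.19 (SE 0.09) that did not pass (adjusted p = 0.064), and its adjusted p was 0.042 when the adjustment covered only genes whose mean reached 100. None of these genes reached an absolute log2 fold change of 0.5.

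Per kilobase of the longest annotated transcript, *SESN2* carried most of the sestrin level and one paralog dominated the α and γ families. *SESN2* made up 63.0% of the summed sestrin level in siControl DMSO, *SESN1* 19.7% and *SESN3* 17.3%. *PRKAA1* made up 91.5% of the α level and *PRKAG1* 91.8% of the γ level of the same group. The β level was the most even, with 46.0% from *PRKAB1* and 54.0% from *PRKAB2*. In Nutlin-3a the summed β level rose from 403 to 1007 normalized counts per kb and *PRKAB2* reached 63.9% of it. With the length of all exons in place of the longest transcript, *SESN2* made up 68.3% and *PRKAB2* 64.4% in siControl DMSO, and *SESN3* then stood above *SESN1* at 17.0% against 14.7%. These shares carry no test.

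**Figure D2:**
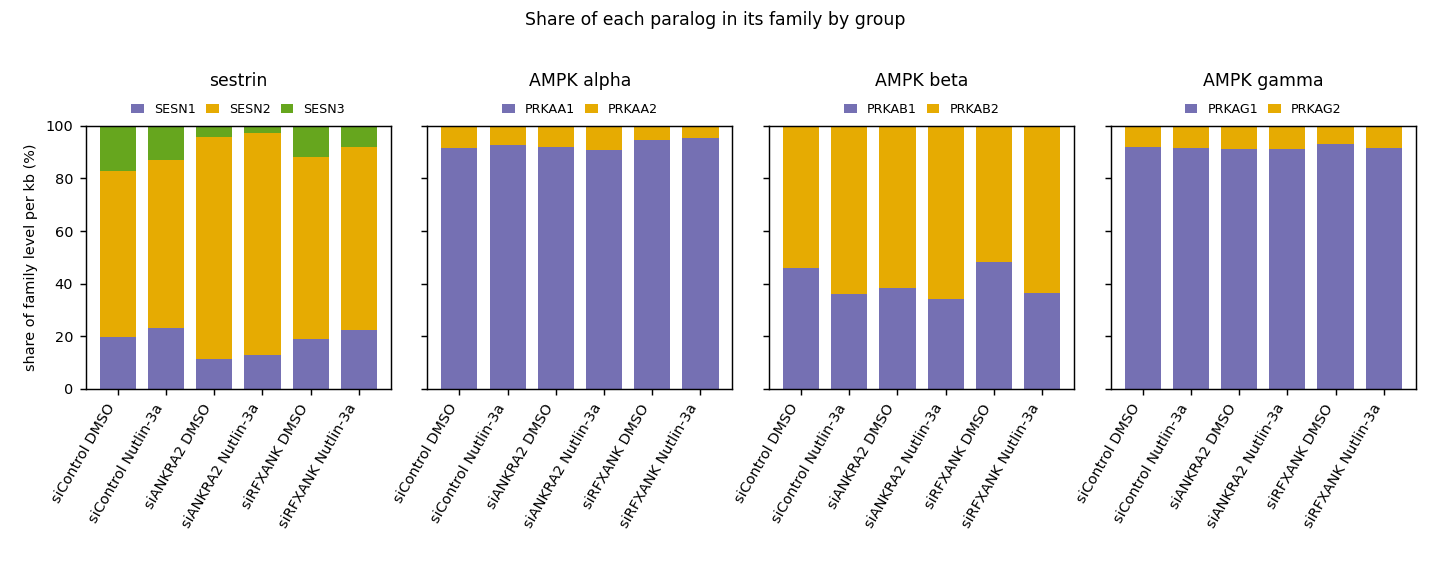
Share of each paralog in the summed level per kb of its family (percent, bars from 0 to 100) in the 6 groups. The *SESN2* share is above 84% in both siANKRA2 groups and below 70% in the other groups, and the α and γ families keep 1 dominant paralog throughout.

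After siANKRA2, Nutlin-3a still raised the sestrins and β subunits, and each of these 5 genes responded less than in siControl. The log2 fold change was 1.30 for *SESN1* (SE 0.08), 1.10 for *SESN2* (SE 0.04), 0.49 for *SESN3* (SE 0.15, adjusted p = 0.0038), 0.53 for *PRKAB1* (SE 0.05) and 0.79 for *PRKAB2* (SE 0.04). *STK11* rose by 0.25. In all, 6 of the 10 genes rose and 0 fell, where 15.5% of the 22738 genes tested were called higher and 17.0% lower, and 21.8% and 26.8% of those with a mean of 100 or more. *PRKAA1* (-0.11, adjusted p = 0.10), *PRKAA2* (0.12, adjusted p = 0.28), *PRKAG1* (0.11, adjusted p = 0.056) and *PRKAG2* (0.14, adjusted p = 0.24) did not pass. With the adjustment limited to genes whose mean reached 100, *PRKAG1* passed at 0.037.

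The difference of the 2 responses was tested itself, as siANKRA2 minus siControl on the log2 scale with a two-sided normal p and Benjamini-Hochberg adjustment over 22738 genes. It was negative for 5 of the 10 genes and positive for 1, beside 12.5% and 11.4% of all genes and 19.1% and 18% of those with a mean of 100 or more. The difference was -0.77 for *PRKAB2* (SE 0.06, adjusted p = 9.32e-33). It was -0.72 for *SESN2* (SE 0.06, adjusted p = 3.96e-31) and -0.71 for *SESN1* (SE 0.10, adjusted p = 1.36e-10). *SESN3* had the largest difference and the largest error, at -0.89 (SE 0.20, adjusted p = 1.12e-04). *PRKAB1* changed by -0.45 (SE 0.07, adjusted p = 2.09e-08). *PRKAA2* was the exception with a positive difference of 0.55 (SE 0.11, adjusted p = 1.46e-05), as its fall in siControl was not seen after siANKRA2. Relative to its own response in siControl, the log2 response that remained was 0.64 (SE 0.04) for *SESN1*, 0.61 (SE 0.03) for *SESN2*, 0.54 (SE 0.06) for *PRKAB1*, 0.51 (SE 0.03) for *PRKAB2* and 0.36 (SE 0.11) for *SESN3*.

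The smaller responses had different starting points in these genes. For *SESN2*, *PRKAB1* and *PRKAB2* the DMSO level was higher after siANKRA2 than in siControl, while in Nutlin-3a *SESN2* was 1.2-fold higher, *PRKAB1* 1.09-fold lower and *PRKAB2* not different beyond its error. For *SESN1* and *SESN3* the level was lower in both treatments, with -0.24 and -1.47 on the log2 scale in DMSO and -0.96 and -2.35 in Nutlin-3a. The responses are therefore given below with the knockdown effects in each treatment.

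**Figure D3:**
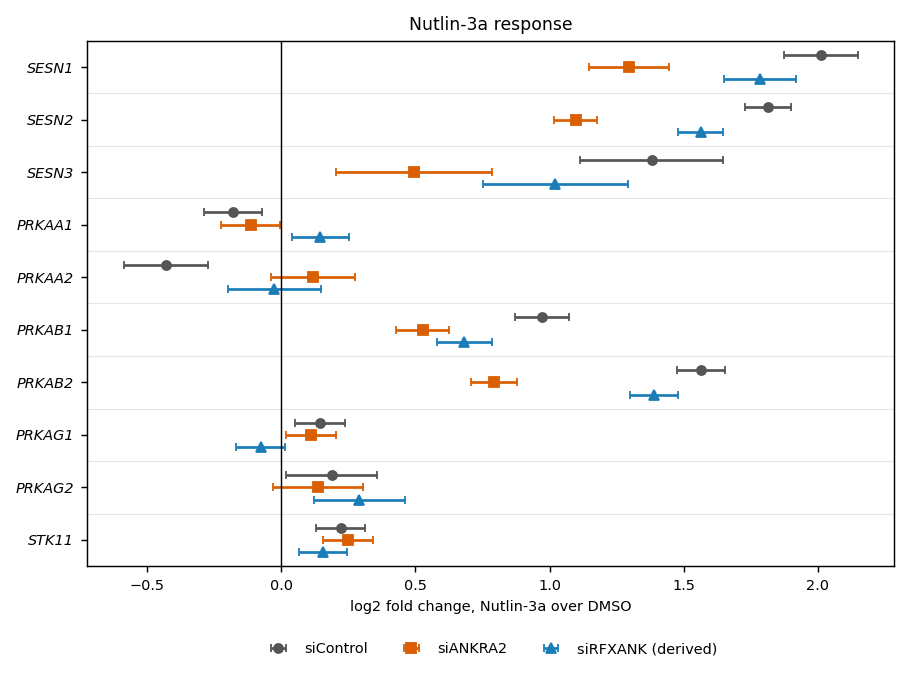
Log2 fold change of Nutlin-3a over DMSO for each gene in siControl (circles), siANKRA2 (squares) and siRFXANK (triangles, derived), with 95% intervals and a line at 0. For *SESN1*, *SESN2*, *SESN3*, *PRKAB1* and *PRKAB2* the siANKRA2 value is the lowest of the 3 and the siControl value the highest.

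No table compares Nutlin-3a with DMSO in siRFXANK cells, so this response was derived by adding the difference between both siRFXANK over siControl tables to the siControl response. By this derivation 8 of the 10 genes rose and 0 fell, beside 22.8% and 22.5% of the 25116 genes tested and 34.2% and 36.1% of those with a mean of 100 or more. The log2 response was 1.78 for *SESN1* (SE 0.07), 1.56 for *SESN2* (SE 0.04), 1.02 for *SESN3* (SE 0.14), 1.39 for *PRKAB2* (SE 0.05) and 0.68 for *PRKAB1* (SE 0.05). *PRKAG2* rose by 0.29 (adjusted p = 0.0020), *STK11* by 0.16 (adjusted p = 0.0023) and *PRKAA1* by 0.15 (adjusted p = 0.019). *PRKAA2* was at -0.03 (adjusted p = 0.85) and *PRKAG1* at -0.08 (adjusted p = 0.18). A constant difference between the separately registered samples cancels in this response on the log2 scale. A difference that changes the effect of Nutlin-3a would not cancel.

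Compared with siControl, the response after siRFXANK differed in 6 of the 10 genes, with 4 differences below 0 and 2 above it, where 9.64% of all genes tested were called lower and 11.6% higher, and 16.8% and 20.9% of those with a mean of 100 or more. Both tested differences use the same siControl samples. In the siRFXANK difference, the knockdown and a batch that changes the effect of Nutlin-3a cannot be told apart. *PRKAB1* differed by -0.29 (SE 0.07, adjusted p = 9.03e-04), *SESN2* by -0.25 (SE 0.06, adjusted p = 4.61e-04), *PRKAG1* by -0.22 (SE 0.07, adjusted p = 0.0062) and *PRKAB2* by -0.17 (SE 0.06, adjusted p = 0.037). *PRKAA2* differed by 0.40 (SE 0.12, adjusted p = 0.0055) and *PRKAA1* by 0.33 (SE 0.08, adjusted p = 3.49e-04). *SESN1* at -0.23 (95% interval of the fold 0.748 to 0.975, adjusted p = 0.081) and *SESN3* at -0.36 (0.599 to 1.01, adjusted p = 0.20) did not pass, and *SESN1* passed at 0.046 when the adjustment was limited to genes whose mean reached 100. No member reached an absolute difference of 0.5 here, whereas 5 did for siANKRA2.

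The knockdown of *ANKRA2* split the sestrins in cells without Nutlin-3a. *SESN2* rose 1.98-fold (log2 fold change 0.98, SE 0.05, adjusted p = 7.31e-103), *SESN3* was 2.76-fold lower (-1.47, SE 0.14, adjusted p = 3.74e-23) and *SESN1* was 1.18-fold lower (-0.24, SE 0.08, adjusted p = 0.0067). Both β subunits rose, *PRKAB2* by 0.78 (SE 0.05, adjusted p = 8.80e-61) and *PRKAB1* by 0.32 (SE 0.05, adjusted p = 1.64e-08), and *STK11* rose by 0.13 (SE 0.05, adjusted p = 0.010). *PRKAA1* (-0.02), *PRKAA2* (-0.14), *PRKAG1* (0.05) and *PRKAG2* (0.17) did not pass. With 4 genes higher and 2 lower of 10, beside 24.3% and 24.5% of all 26702 genes tested and 37.7% and 39.2% of those with a mean of 100 or more, the number of calls is not a result about these genes. *CDKN1A* rose more than any of the 10 genes in this comparison, at 2.04 (SE 0.04). Its part in these values was not tested.

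Under Nutlin-3a, siANKRA2 lowered *SESN3* 5.11-fold (log2 fold change -2.35, SE 0.14, adjusted p = 6.49e-62) and *SESN1* 1.94-fold (-0.96, SE 0.06, adjusted p = 2.55e-50). *SESN2* remained higher than in siControl, by 0.27 (SE 0.04, adjusted p = 2.69e-11). *PRKAB2* had the same level within its error, 3508 against 3486 (log2 difference 0.01, 95% interval -0.07 to 0.09, adjusted p = 0.89), and *PRKAB1* was lower by a small amount, at -0.12 (SE 0.05, adjusted p = 0.024). *PRKAA2* rose by 0.41 (SE 0.08, adjusted p = 1.28e-06) and *STK11* by 0.16 (SE 0.05, adjusted p = 0.0013). Altogether 3 of the 10 genes were higher and 3 lower, beside 24.6% and 25.5% of all genes tested and 38.5% and 39.6% of those with a mean of 100 or more. *PRKAA1* (0.04), *PRKAG1* (0.01) and *PRKAG2* (0.12) did not pass.

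**Figure D4:**
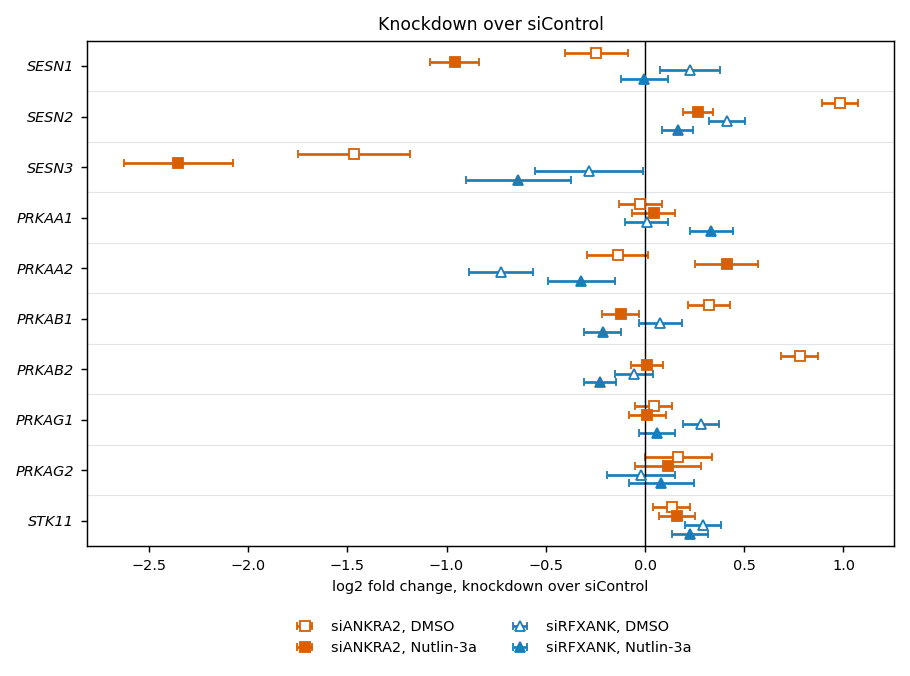
Log2 fold change of each knockdown over siControl for the 10 genes, with open symbols for DMSO, filled symbols for Nutlin-3a, squares for siANKRA2, triangles for siRFXANK, bars for 95% intervals and a line at 0. *SESN3* after siANKRA2 lies farthest from 0 on the left, and *SESN2* and *PRKAB2* after siANKRA2 in DMSO farthest on the right.

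After siRFXANK the sestrin values were smaller and *PRKAA2* was the gene farthest from 0 in DMSO. There *PRKAA2* fell by 0.72 on the log2 scale (SE 0.08, adjusted p = 2.01e-17), from a level of 501 to 303. *SESN2* rose by 0.41 (SE 0.05, adjusted p = 7.01e-18), *STK11* by 0.29 (SE 0.05, adjusted p = 2.70e-09), *PRKAG1* by 0.28 (SE 0.05, adjusted p = 8.81e-09) and *SESN1* by 0.22 (SE 0.08, adjusted p = 0.010). *SESN3* at -0.28 (adjusted p = 0.095), *PRKAA1* at 0.01, *PRKAB1* at 0.08, *PRKAB2* at -0.05 and *PRKAG2* at -0.02 did not pass. This gives 4 genes higher and 1 lower, beside 20.9% and 21.2% of the 25909 genes tested and 34.0% and 35.4% of those with a mean of 100 or more.

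In Nutlin-3a, siRFXANK lowered *SESN3* by 0.64 (fold change -0.64 on the log2 scale, SE 0.13, adjusted p = 1.08e-05), *PRKAA2* (-0.32, SE 0.09, adjusted p = 7.28e-04), *PRKAB2* (-0.23, SE 0.04, adjusted p = 2.99e-07) and *PRKAB1* (-0.21, SE 0.05, adjusted p = 4.71e-05). *PRKAA1* rose by 0.33 (SE 0.06, adjusted p = 8.15e-09), *STK11* by 0.23 (SE 0.05, adjusted p = 5.65e-06) and *SESN2* by 0.16 (SE 0.04, adjusted p = 1.10e-04). *SESN1* (-0.00, adjusted p = 0.98), *PRKAG1* (0.06) and *PRKAG2* (0.08) did not pass. Of the 10 genes 3 were thus higher and 4 lower, beside 19.8% and 19.6% of the 25116 genes tested and 32.1% and 30.6% of those with a mean of 100 or more. *CDKN1A* was lower by 0.88 in the same comparison (fold change -0.88 on the log2 scale, SE 0.04). Its part in these values was not tested, and siRFXANK and the separate registration of its samples cannot be told apart in either siRFXANK over siControl comparison.

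Paralogs were then set against each other within each comparison, as the difference of their log2 fold changes. The 95% intervals treat the errors of both genes as independent although they were read in the same libraries, and no p is given. Of 54 differences, 6 pairs in 9 comparisons, 36 had an interval that left out 0. The comparisons share groups, the intervals are not adjusted, and no share over other gene pairs was computed. This count is therefore not a result about paralogs. The Nutlin-3a responses of *SESN1* and *SESN2* lay within 0.22 of each other with each siRNA, *SESN1* being ahead by 0.20 in siControl (95% interval 0.04 to 0.36), 0.20 after siANKRA2 and 0.22 after siRFXANK. They parted after siANKRA2, where *SESN1* lay 1.23 below *SESN2* in DMSO (difference -1.23, 95% interval -1.41 to -1.04) and again in Nutlin-3a (-1.23, -1.37 to -1.08). The response differences of both genes after siANKRA2 lay 0.00 apart (-0.23 to 0.24).

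*SESN3* lay below both other sestrins in every response and every knockdown comparison. After siANKRA2, *SESN2* exceeded *SESN3* by 2.45 in DMSO (95% interval 2.15 to 2.75) and by 2.62 in Nutlin-3a (2.34 to 2.90), and after siRFXANK by 0.69 (0.41 to 0.98) and 0.80 (0.53 to 1.08). *SESN1* exceeded *SESN3* by 0.51 to 1.39 over these 4 comparisons. The *SESN3* share of the sestrin level per kb went from 17.3% in siControl DMSO to 4.25% in siANKRA2 DMSO, and from 13.0% to 2.79% in Nutlin-3a. The *SESN2* share went from 63.0% to 84.4% and from 64.0% to 84.2%. The summed sestrin level per kb in Nutlin-3a was 2045 in siControl, 1869 in siANKRA2 and 2106 in siRFXANK.

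Among the AMPK pairs, the β subunits differed in the Nutlin-3a response with all 3 siRNAs, *PRKAB2* being ahead by 0.59, by 0.27 after siANKRA2 (95% interval 0.13 to 0.40) and by 0.71 after siRFXANK (0.57 to 0.85). After siANKRA2 the response differences of *PRKAB1* and *PRKAB2*, -0.45 and -0.77, lay 0.33 apart (0.14 to 0.51) in absolute terms. As a ratio to the gene's own response in siControl, 0.54 (SE 0.06) and 0.51 (SE 0.03) remained, a gap within the error. The α subunits parted most after siRFXANK, where *PRKAA1* exceeded *PRKAA2* by 0.73 in DMSO (0.54 to 0.93) and by 0.66 in Nutlin-3a (0.46 to 0.86). *PRKAA2* exceeded *PRKAA1* by 0.37 after siANKRA2 in Nutlin-3a (0.18 to 0.56). The γ subunits parted in 3 of 9 comparisons, all with siRFXANK, the farthest being the derived response with *PRKAG2* ahead by 0.37 (0.18 to 0.56). In the siControl response the γ difference was -0.04 (-0.24 to 0.15).

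**Figure D5:**
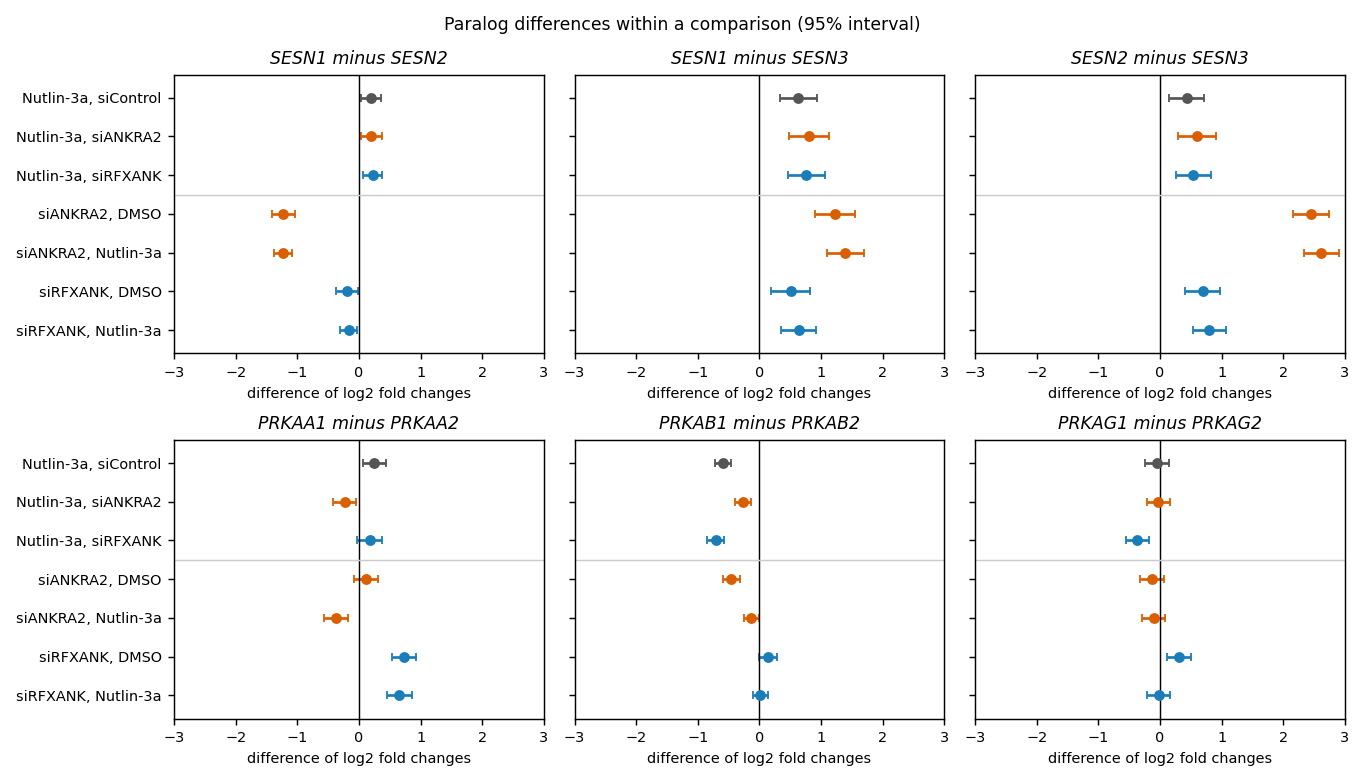
Difference of the log2 fold changes of 2 paralogs (first minus second gene) in 7 comparisons, with the 3 Nutlin-3a responses above the grey line, the 4 knockdown comparisons under it, 95% intervals and a line at 0. The siANKRA2 points of *SESN2* minus *SESN3* lie farthest from 0, and the *PRKAG1* minus *PRKAG2* points lie within 0.37 of it.

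Genes of the same pathway were read from a list of 53 genes, of which 52 were listed in the tables. In siControl, Nutlin-3a raised 19 of the 52 (36.5%) and lowered 11 (21.2%), beside 21.9% and 21.2% of all genes tested and 32.4% and 35.1% of those with a mean of 100 or more. The median log2 fold change of the list was 0.05. The largest rises were those of *MLYCD* (1.62, SE 0.15), which encodes malonyl-CoA decarboxylase, *TXNIP* (1.46, SE 0.12), which encodes a brake on glucose uptake that AMPK phosphorylates, and the AMPK-related kinase gene *NUAK2* (1.0, SE 0.10). The largest falls were those of *ACACB* (-0.90, SE 0.16), an acetyl-CoA carboxylase and AMPK substrate, *MARK1* (-0.49, SE 0.09) and *SIK2* (-0.48, SE 0.08), both AMPK-related kinases. All 6 had an adjusted p of at most 1.45e-07. Read against the same shares, the GATOR2 complex, which sestrins bind, had 1 of 5 subunits higher and 4 lower, and none of the 3 GATOR1 subunits passed. Of 14 AMPK substrates and partners 6 rose and 2 fell, and of 12 AMPK-related kinases 6 rose and 2 fell. Groups this small are described by their counts only.

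After siANKRA2, Nutlin-3a raised 15 of the 52 (28.8%) and lowered 7 (13.5%), beside 15.5% and 17.0% of all genes and 21.8% and 26.8% of those with a mean of 100 or more. *MLYCD* rose by 0.94, *TXNIP* by 0.61 and the autophagy receptor gene *SQSTM1* by 0.42, while *ACACB* (-0.46), *NUAK1* (-0.30) and *SEH1L* (-0.23), a GATOR2 subunit, fell. In the derived siRFXANK response 23 rose (44.2%) and 11 fell (21.2%), beside 22.8% and 22.5% of all genes and 34.2% and 36.1% of those with a mean of 100 or more. The response differed from that of siControl in 18 of the 52 after siANKRA2, with 12 below 0 (23.1%, beside 12.5% of all genes) and 6 above (11.5%, beside 11.4%). After siRFXANK it differed in 17, with 6 below 0 (11.5%, beside 9.64%) and 11 above (21.2%, beside 11.6%). With a mean of 100 or more, 19.1% of genes were below 0 and 18% above it after siANKRA2, and 16.8% and 20.9% after siRFXANK.

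Both knockdowns are set against the same siControl samples. siANKRA2 in DMSO raised 25 (48.1%) and lowered 14 (26.9%) of the 52, beside 24.3% and 24.5% of all genes and 37.7% and 39.2% of those with a mean of 100 or more. In Nutlin-3a it raised 23 (44.2%) and lowered 15 (28.8%), beside 24.6% and 25.5%, and 38.5% and 39.6%. The kinase gene *SIK1* rose by 1.6 (SE 0.13) in DMSO and by 1.16 (SE 0.11) in Nutlin-3a, and *FNIP2*, which encodes a partner of folliculin, rose by 1.0 (SE 0.08) and 1.34 (SE 0.08). *NUAK2* rose by 1.02 in DMSO and *MARK1* by 1.09 in Nutlin-3a. *KPTN* (-0.64 and -0.85), whose product belongs to the KICSTOR complex that tethers GATOR1 to lysosomes, fell in both treatments, as did *CAMKK1* (-0.76 and -0.94), which encodes a kinase of the family that also phosphorylates AMPK. siRFXANK in DMSO raised 12 (23.1%) and lowered 16 (30.8%), beside 20.9% and 21.2% of all genes and 34.0% and 35.4% of those with a mean of 100 or more. In Nutlin-3a it raised 17 (32.7%) and lowered 15 (28.8%), beside 19.8% and 19.6%, and 32.1% and 30.6%. *SQSTM1* rose by 1.28 and 1.17, and *STRADA*, which encodes the pseudokinase partner of STK11, by 0.77 and 0.63. *MLYCD* rose by 0.78 in DMSO and *SRXN1*, which encodes sulfiredoxin, by 0.87 in Nutlin-3a. *TXNIP* (-1.35 and -1.66) and *FNIP2* (-1.06 and -0.60) fell in both treatments, *TSC2*, which encodes an inhibitor of mTORC1 signalling, fell in DMSO (-0.57) and the autophagy kinase gene *ULK1* in Nutlin-3a (-0.87). *FNIP2* thus had opposite signs after the 2 knockdowns.

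Counting of reads could touch some of these values, since whether the counting used strand is not given in the sources used here. Exons of *SESN1* share 363 bases (7.09% of its exon bases) with *AL390208.1* on the opposite strand, *PRKAG1* shares 532 (12.7%) with *DDN-AS1*, *STK11* 149 with *CBARP*, *PRKAB1* 137 with *AC002070.1*, *SESN3* 93 with *AP000787.1* and *PRKAG2* 84 with *PRKAG2-AS1*. *SESN2*, *PRKAA1*, *PRKAA2* and *PRKAB2* share no exon base with another annotated gene. Stretches of 31 bases found in transcripts of other genes made up 3.77% of the longest *STK11* transcript, 1.66% of *PRKAA1* and 0.58% of *PRKAA2*, and none in the sestrins, *PRKAB2* or the γ subunits. Their part in the results was not tested.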

How the data were processed

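RNA-seq of polyadenylated RNA was made from 500 ng of total RNA per sample, and the 18 samples were grouped by siRNA and treatment from their titles. The authors deposited 6 comparison tables and no values per library, so the depth is unknown. The submitters' processing notes name Trimmomatic 0.39, featureCounts 1.6.5, DESeq2 1.20.0 and the build hg38. The aligner, the annotation and the use of strand are not given in the sources used here. The authors' mean normalized count, which may cover samples beyond these 18, was used as a signal value, and the authors' log2 fold change with its SE, also on the log2 scale, and the authors' p-value and Benjamini-Hochberg adjusted p-value were used as deposited, since no other measure was at hand. Knockdown tables were read as knockdown over siControl because the targeted gene is then lower. The tables without siRFXANK closed to within 1.38e-14 on the log2 scale over 22738 genes, as in 1 joint fit. Both siRFXANK tables lie outside this closure, so it does not show that they share that fit.

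Differences of responses and the derived siRFXANK response were computed with Python 3.11.15, numpy 2.4.6 and scipy 1.17.1. The SE of a response difference was the root of the summed squared SEs. For the derived response the squared SE of the siControl response was subtracted from the summed squared SEs of both siRFXANK tables. This assumes that the siRFXANK and siControl values come from a shared fit. Group SEs were recovered by least squares from the 6 squared SEs. The steps were run on simulated data whose SEs were set from the true variances. The derived SE and the recovered level follow there by construction, so the simulation is no check of them. The alternatives tried are given in the closing section. Intervals are 1.96 SEs wide on each side. Lengths, overlaps and shared stretches came from GENCODE 29.

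The members and gene lists were chosen with earlier results of these data known. Named genes are all members, 4 checks, in each table the 3 largest rises and falls of the pathway list past the threshold with a mean of at least 100, and the 2 genes nearest in pattern to each member. Some results that this rule names are not reported here.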

Additional observations from a re-analysis of the deposited data

Results flagged for a closer look

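The Nutlin-3a response of 6 of the 10 genes differed between siANKRA2 and siControl, and of 6 between siRFXANK and siControl, by the test of the difference itself. After siANKRA2 the difference on the log2 scale was -0.71 for *SESN1*, -0.72 for *SESN2*, -0.89 for *SESN3*, -0.45 for *PRKAB1*, -0.77 for *PRKAB2* and 0.55 for *PRKAA2*. After siRFXANK it was -0.25 for *SESN2*, -0.29 for *PRKAB1*, -0.17 for *PRKAB2*, -0.22 for *PRKAG1*, 0.33 for *PRKAA1* and 0.40 for *PRKAA2*. The check genes moved beside them, with *CDKN1A* at -1.85 (SE 0.06) and *MDM2* at -1.19 (SE 0.07) after siANKRA2, and at -0.82 (SE 0.06) and -0.33 (SE 0.07) after siRFXANK. Their part in the differences of the 10 genes was not tested.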

How the results depend on the processing

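The tables hold no value per library, so leaving out samples, another count model and a filter on raw counts were not run. No paired analysis was possible because the tables give no values for the numbered samples. With an added minimum of 0.5 on the absolute log2 scale, the number of the 10 genes called was 5 for the siControl response, 3 for siANKRA2 in DMSO, 2 for siANKRA2 in Nutlin-3a, 1 for siRFXANK in DMSO, 1 for siRFXANK in Nutlin-3a, 5 for the derived siRFXANK response and 0 for its difference from siControl, where the test without that minimum (two-sided normal p, Benjamini-Hochberg) called 6. For the siANKRA2 response it was 4 and for its difference 5. No direction changed under any alternative run. Of 90 values, 5 lost their call at a threshold of 0.01, 3 gained one when the adjustment was limited to genes whose mean reached 100, 2 gained one after recentring on the median gene, which lay within 0.02 of 0, and none moved when adjusted over the genes in all 6 tables. The other pair of tables gives the same siANKRA2 difference by construction, since the tables close on each other, and so is no check of it. Recentring left 36 paralog intervals without 0. Group means recovered from the SEs in place of the authors' means were 828 for *SESN1*, 784 for *SESN3*, 2422 for *PRKAA1*, 452 for *PRKAA2*, 2738 for *PRKAB2*, 457 for *PRKAG2* and 4401 for *STK11*. The authors' mean of *SESN3* was thus 1.45 times the recovered one, so that levels and shares are approximate while fold changes are not affected.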

Other observations

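The genes with the most similar pattern were sought among 13093 other genes with a mean of at least 100, by the root mean squared difference of the 5 log2 levels relative to siControl DMSO. Nearest to *SESN1* were *FUCA1*, a lysosomal fucosidase gene, at 0.14 and *PLEKHG1* at 0.14. Nearest to *SESN2* were *BBC3*, which encodes the p53-inducible death factor PUMA, at 0.20 and *CEP85L* at 0.21. After siANKRA2 in DMSO *BBC3* stood at 0.70 on the log2 scale, beside 0.98 for *SESN2*. The neighbours of *SESN3* were *COL4A5*, a collagen gene, at 0.22 and *SIAE* at 0.29. After siANKRA2 in DMSO these stood at -1.49 and -1.59, beside -1.47 for *SESN3*. Nearest to *PRKAB2* were *MCC* at 0.10 and *WIPI1*, an autophagy gene, at 0.12, and nearest to *PRKAB1* were *C12orf45* at 0.06 and *TSPYL1* at 0.08.

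The other members had neighbours at 0.03 to 0.10. These were *IRAK1* and *LRP6* for *PRKAA1*, *PFN2* and *MLLT1* for *PRKAA2*, *ZFPL1* and *THG1L* for *PRKAG1*, *ASCC2* and *TFIP11* for *PRKAG2*, and *SCARB2* and *RNF113A* for *STK11*. Likeness over 5 values that share their siControl DMSO samples is a description only.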
